A study of Homo sapiens with 2 samples.

Results

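The circadian clock genes described here are 10 genes taken by symbol from both deposited expression tables: CLOCK, ARNTL, PER1, PER2, PER3, CRY1, CRY2, NR1D1, BHLHE40 and BHLHE41. All 10 were found among the 26447 gene symbols listed in both tables. RNA sequencing had been run on C4-2B ENZR, an established human prostate cancer line resistant to enzalutamide, a drug used against prostate cancer. Both groups grew with 20 µM enzalutamide and had been infected with lentivirus and put under antibiotic selection. The control group, labelled wild type, expressed a hairpin RNA with no target. The knockdown group expressed 1 hairpin against the coding region of NRP2, the gene of neuropilin-2, a receptor subunit for semaphorins and VEGF. Each group holds 1 library, so there is no spread between replicates, and every difference below describes these 2 libraries. The hour of harvest and any synchronization of the cells were not given in the sources used here, so a shift in clock phase and a change in average level cannot be told apart.

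The circadian clock is a feedback loop of transcription. CLOCK and ARNTL (also called BMAL1) form a dimer that binds E-box DNA and activates the PER and CRY genes, and PER and CRY proteins enter the nucleus and repress that dimer. NR1D1 (REV-ERBα) represses ARNTL in a linked loop, and BHLHE40 and BHLHE41 (DEC1 and DEC2) are E-box-binding repressors that oppose CLOCK and ARNTL. In unsynchronized cell cultures single cells can cycle out of step, and the RNA of a whole culture then reports an average.

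Several promoters of these genes hold the DNA elements through which the loop is known to run. They are shown for the genes that were lower together in the knockdown library (PER1, PER2, PER3, CRY2 and BHLHE40), with CRY1 and ARNTL for comparison. These genes were chosen by their values, and CLOCK, NR1D1 and BHLHE41, not printed, held such elements too. RefSeq windows of 300 bases (GRCh38.p14, 250 bases before a start site and 50 from it on) were matched for all 10 genes, ARNTL under its current symbol BMAL1. They were searched on both strands for the E-box CACGTG, the variant E'-box CACGTT, the D-box in its spellings TTATGTAA and TTACGTAA, the core TAGGTCA of the RORE, the element of ROR and REV-ERB receptors, and the low-oxygen element core ACGTG, which overlaps every E-box and E'-box by its letters. Capitals mark the matched E-box, E'-box, D-box or RORE, and positions count from the start site as 1. For PER1 and PER3 the whole 250 bases before the start are shown, on the minus strand at chr17:8152405-8152654 and on the plus strand at chr1:7784041-7784290, and for the others a stretch of 30 bases around the match.
PER1: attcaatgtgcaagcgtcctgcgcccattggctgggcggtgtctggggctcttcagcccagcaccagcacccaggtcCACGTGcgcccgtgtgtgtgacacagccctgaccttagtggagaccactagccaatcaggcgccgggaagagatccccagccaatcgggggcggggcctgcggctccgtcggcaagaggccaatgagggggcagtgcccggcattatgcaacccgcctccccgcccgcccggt
PER3: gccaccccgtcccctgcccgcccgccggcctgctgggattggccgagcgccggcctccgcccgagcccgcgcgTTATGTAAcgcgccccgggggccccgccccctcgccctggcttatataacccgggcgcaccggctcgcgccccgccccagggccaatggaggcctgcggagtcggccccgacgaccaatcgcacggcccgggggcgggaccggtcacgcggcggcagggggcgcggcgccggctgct
PER2 E'-box: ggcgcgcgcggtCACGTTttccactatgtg
PER2 D-box: cccgctgcggcTTACGTAAccgccgccggc
CRY1 E'-box: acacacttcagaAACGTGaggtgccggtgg
CRY2 E'-box: acacatggtaggAACGTGagggggcgggcc
BHLHE40 E-box: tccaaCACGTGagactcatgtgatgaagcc
CRY2 RORE core: ttgcggcgtcaTAGGTCActgggcgggcta
ARNTL RORE core: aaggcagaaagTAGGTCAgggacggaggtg

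The PER1 E-box lay at positions -173 to -168 and that of BHLHE40 at -245 to -240 (chr3:4979187-4979216, plus strand). The PER3 D-box lay at -177 to -170, and the PER2 D-box, at chr2:238288595-238288624 on the minus strand, spanned the start site from -3 to 5. The PER2 E'-box was at chr2:238288790-238288819 on the minus strand. CRY1 and CRY2 both held the E'-box, printed here as its reverse complement, at chr12:107093621-107093650 on the minus strand and chr11:45847275-45847304 on the plus strand. The RORE core of ARNTL lay after the start, at positions 31 to 37 (chr11:13277809-13277838, plus strand), and that of CRY2 before it, at -65 to -59 (chr11:45847399-45847428, plus strand). Among the genes not printed, NR1D1 held an E'-box at -168 to -163, CLOCK an E'-box at -187 to -182 and BHLHE41 an E-box at -48 to -43. The elements were thus not particular to the genes that were lower. PER3, CRY2, CLOCK and ARNTL have 2 windows each in the table, and the match was in 1 of them. Of 35116 promoter windows of the same length, 7.26% held the E-box, 5.34% the E'-box, 1.01% a D-box, 1.85% the RORE core and 21.4% the low-oxygen core. A match describes these letters and does not show that a factor bound there.

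The 2 libraries held 21052178 reads on genes in the control and 22992304 in the knockdown. NRP2, the targeted gene, had 20 reads (0.974 CPM) in the control library against 7 reads (0.330 CPM) after knockdown, 2.95-fold lower with a counting interval from 1.198 to 8.26. Its mean of 0.652 CPM lies under the 1 CPM used below for comparing genes. The related gene NRP1 was lower too, at 76.7 CPM (1576 reads) and 31.0 CPM (657 reads), 2.48-fold lower (2.26 to 2.72). Whether NRP1 had a part in the differences below was not tested. CPM here are the deposited read counts per unit of library size after the authors' TMM scaling. The labelled cell type was checked against luminal prostate markers, with HOXB13 at 511 and 486 CPM and KRT8 at 457 and 616 CPM. All 10 listed luminal markers had reads in both libraries, and 2 were past 1.5-fold higher in the knockdown library and 0 lower. KLK3, which encodes prostate-specific antigen, was at 5.599 and 41.03 CPM and its relative KLK2 at 16.4 and 92.5 CPM, while FOXA1 was at 453 and 302 CPM and STEAP2 at 269 and 213 CPM. Among markers of other cells, the 6 fibroblast genes summed to 44.3 and 34.9 CPM, nearly all of it COL1A1, with DCN at 0 reads in both. The 5 leukocyte genes summed to 7.35 and 10.9 CPM, mostly CD68 with 137 and 211 reads, and LYZ had 6 and 17 reads and PTPRC 5 and 1. The 5 endothelial genes summed to 4.09 and 3.87 CPM, mostly VWF with 77 and 72 reads, while PECAM1 had 0 and 6, KDR 7 and 0 and TEK 0 in both. The part of these differences in the results was not tested. In bulk RNA, fewer cells with a transcript and less of it in each cell cannot be told apart.

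Period genes and CRY2 were lower in the knockdown library, ARNTL was somewhat higher, and CRY1, CLOCK and NR1D1 were nearly level. The differences were modest. The line for a call was 1.5-fold in either direction, measured as log2(CPM + 1), and genes averaging under 1 CPM were not compared. BHLHE41 lay under that average, and of the other 9 clock genes 0 were called higher and 0 lower. Over all 13316 genes compared, 5.78% were called higher and 3.57% lower, so the clock genes' counts do not stand off the background. The median log2 change of the 9 genes was -0.28, against 0.03 over all genes. A value below 0 was seen for 7 of the 9, and for 45.9% of all genes. Exact conditional binomial 95% intervals, which cover counting error only, lay below a ratio of 1 for 5 of the 9 genes (24% of all genes) and above 1 for 2 (32.7% of all genes). With a plain ratio of 1.5-fold and such an interval as the line, 1 of the 9 was lower and 0 higher, against 5.05% and 7.14% of all genes.

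**Figure D1:**
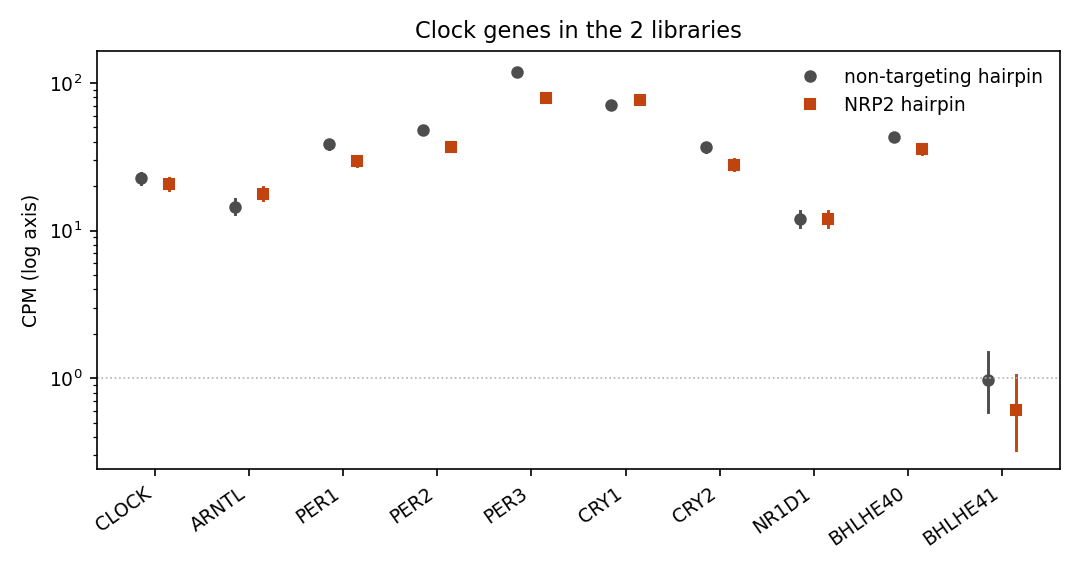
Level of each clock gene in CPM (log axis) in the control library (grey circles) and the NRP2 hairpin library (orange squares), with exact Poisson 95% counting intervals and a dotted line at 1 CPM. PER3 goes from 118 to 78.5 CPM, while CRY1 stays between 71.4 and 76.8 CPM and BHLHE41 lies under 1 CPM in both.

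The activators moved little and apart. ARNTL, whose loss alone abolishes behavioural rhythms in mice, stood at 14.6 CPM (299 reads) in the control library and at 17.8 CPM (378 reads) after knockdown. Its ratio was 1.22 (1.05 to 1.43) and its log2 change 0.28, and 18.5% of all compared genes were as high or higher. With both libraries set to equal totals that interval would reach below 1. CLOCK, a histone acetyltransferase as well as a DNA-binding subunit, was at 22.6 CPM (464 reads) and 20.6 CPM (437 reads). Its ratio of 0.912 had a counting interval from 0.799 to 1.04, so no difference was detectable at this depth. The reads of both genes together gave 37.1 and 38.4 CPM, a ratio of 1.03 (0.936 to 1.14).

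PER3, the most abundant of the 3 period genes, showed the largest log2 change of the 10. It stood at 118 CPM (2424 reads) in the control library and at 78.5 CPM (1665 reads) after knockdown, 1.503-fold lower (1.41 to 1.60), with a log2 change of -0.58. On the log2(CPM + 1) scale that is 1.497-fold, just short of the 1.5-fold line, and it passed the line with a pseudocount of 0.25 CPM or as a plain ratio. Of all compared genes, 3.67% were as low or lower, and of 4159 genes whose mean level was within 2 times that of PER3, 1.51% were. PER3 shares 868 exon bases with UTS2 on the opposite strand in GENCODE v29, but UTS2 had 0 reads in both libraries, which allows up to 0.146 and 0.141 CPM. Genes on the opposite strand that were not analysed here share a further 376 exon bases with PER3 (Z98884.1), 188 with PER2 (AC012485.1), 94 with CRY1 (AC078929.1) and 27 with CLOCK (AC024243.1), and AC129492.3 shares 30 with PER1 on the same strand. The values of these 5 genes are uncertain to that extent.

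PER1, a period gene induced by glucocorticoid and cAMP signals, was at 38.6 CPM (792 reads) and 29.6 CPM (628 reads), 1.30-fold lower (1.17 to 1.45). PER2, whose protein carries the phosphorylation sites that set its stability and the speed of the clock, was at 48.2 CPM (990 reads) and 36.9 CPM (782 reads), 1.31-fold lower (1.19 to 1.44). Their log2 changes of -0.37 and -0.38 differed by far less than their counting intervals. Changes as low or lower were found for 9.73% and 9.35% of all compared genes. The 3 period genes together went from 205 to 145 CPM, 1.41-fold lower (1.35 to 1.48).

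The 2 cryptochromes, repressors related to the photolyases, did not move alike. CRY1 was at 71.4 CPM (1466 reads) and 76.8 CPM (1629 reads), a ratio of 1.08 whose interval reached from 1.00 to 1.16 and whose log2 change was 0.10. CRY2 was at 36.7 CPM (753 reads) and 28.02 CPM (594 reads), 1.31-fold lower (1.17 to 1.46), close to PER1 and PER2. CRY1 thus made up 66.1% of the CRY reads in the control library (64.1 to 68.0, exact Clopper-Pearson 95% interval) and 73.3% in the knockdown library (71.4 to 75.1). The sum of the pair, 108 and 105 CPM, was nearly level, with a ratio of 0.970 (0.915 to 1.03).

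**Figure D2:**
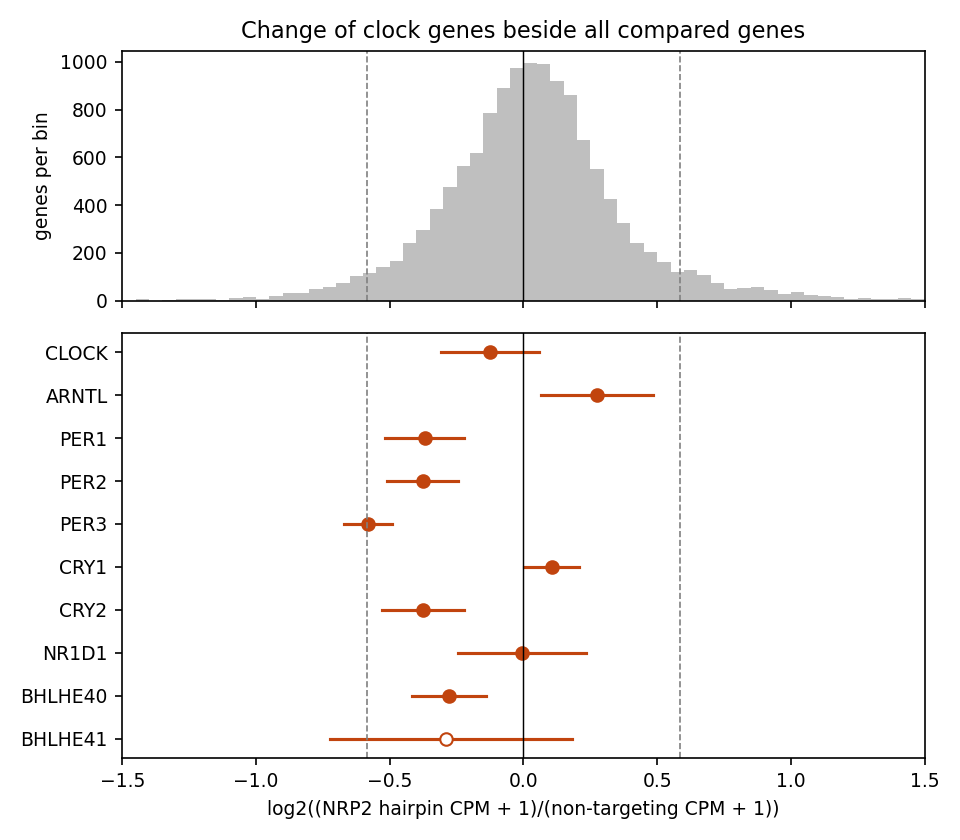
Log2 change of each clock gene with its 95% counting interval (lower panel) under the distribution of all 13316 compared genes (upper panel, genes beyond the axis not drawn). Dashed lines mark 1.5-fold, and BHLHE41 (open circle) lies under the mean of 1 CPM. PER1, PER2, PER3, CRY2 and BHLHE40 lie left of 0 with their intervals, and ARNTL and, barely, CRY1 right of it.

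Among the repressors outside the PER and CRY families, BHLHE40 was slightly lower and NR1D1 level. NR1D1, a heme-binding nuclear receptor, was at 12.0 CPM in both libraries (247 and 254 reads), a ratio of 0.996 (0.833 to 1.19). It shares 263 exon bases with THRA on the opposite strand in GENCODE v29, and THRA was at 61.8 and 70.9 CPM. Whether the counts used strand was not given in the sources used here, so reads of the shared stretch may belong to either gene and the value of NR1D1 is uncertain. BHLHE40 was at 43.2 CPM (887 reads) and 35.5 CPM (752 reads), 1.22-fold lower (1.10 to 1.34), with a log2 change of -0.28. Its paralog BHLHE41 rested on 20 and 13 reads (0.974 and 0.613 CPM), 1.59-fold lower with an interval from 0.752 to 3.47, which does not show a difference at this depth.

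BHLHE40 is known as a target of hypoxia-inducible factors, and its window held the low-oxygen core ACGTG at -174 to -170 and, reversed, at -149 to -145, beside the letters within its E-box. Windows of CLOCK, PER1, PER2, CRY1, CRY2, NR1D1 and BHLHE41 held the core too. In PER2, CRY2 and NR1D1 some of these matches lay outside any E-box or E'-box. In these libraries BHLHE40 lay on the other side of 0 from most genes induced by low oxygen. Whether a low-oxygen signal had a part in the BHLHE40 value was not tested. Of 20 such genes, 19 were compared, and 14 were at least 1.5-fold higher in the knockdown library and 0 lower. The shares of all compared genes were 5.78% higher and 3.57% lower. The median log2 change of the 19 was 1.05, while BHLHE40 was at -0.28. The 14 were CA9, NDRG1, BNIP3, PFKFB4, P4HA1, PDK1, PGK1, ALDOA, P4HA2, KDM3A, LDHA, ENO1, VEGFA and PFKFB3, with log2 changes from 3.10 down to 0.67. CA9, a membrane carbonic anhydrase, was at 1.36 and 19.2 CPM, and PDK1, a mitochondrial kinase that restrains pyruvate oxidation, was at 44.8 and 118 CPM.

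Ratios of reads between clock genes within a library do not depend on how the libraries were scaled. In the control there were 0.378 ARNTL reads per PER1 read (0.329 to 0.432) and in the knockdown 0.602 (0.528 to 0.685). Against PER2 the values were 0.302 (0.264 to 0.344) and 0.483 (0.426 to 0.547), and against PER3 0.123 (0.109 to 0.139) and 0.227 (0.203 to 0.254). Against CRY2 they were 0.397 (0.346 to 0.455) and 0.636 (0.558 to 0.725). These 4 genes and BHLHE40, at 0.337 (0.295 to 0.385) and 0.503 (0.443 to 0.570), are those whose own level was lower. Against the other 3 compared genes the ratios moved less. ARNTL reads per CLOCK read were 0.644 (0.555 to 0.747) and 0.865 (0.752 to 0.995), those per NR1D1 read 1.21 (1.02 to 1.44) and 1.49 (1.27 to 1.75), and those per CRY1 read 0.204 (0.179 to 0.231) and 0.232 (0.207 to 0.260). The counting intervals of the libraries overlapped for NR1D1 and CRY1 and lay apart for the other 6 of 8 genes, with ARNTL higher in the knockdown library for those 6 and lower for 0. Over all compared genes the shares were 30% higher and 3.51% lower. All 8 ratios share the same ARNTL reads, so they are not separate observations. ARNTL had the highest log2 change of the compared clock genes (0.28), so every ratio had to rise. The 6 and 0 thus restate the changes of the single genes and are no further evidence. Within the PER family, PER3 gave 57.6% of the reads in the control (56.1 to 59.1) and 54.1% in the knockdown (52.4 to 55.9). The intervals cover counting error only, and how much such ratios vary between cultures of the same kind was not tested.

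**Figure D3:**
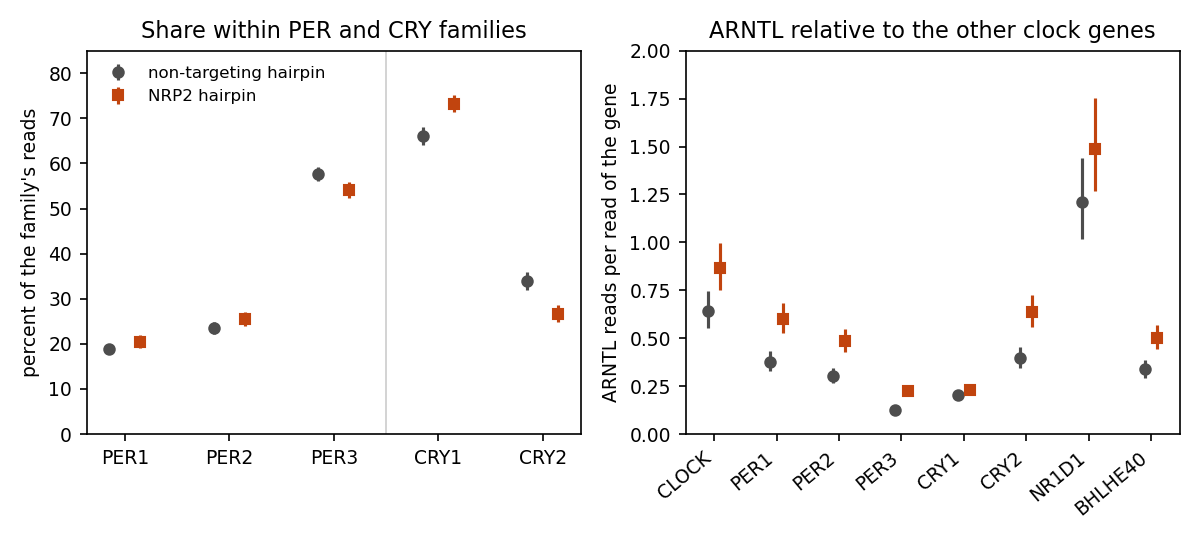
Left, share of each gene in the reads of its family (percent, exact 95% intervals); right, ARNTL reads per read of each other compared clock gene, in the control (grey circles) and the NRP2 hairpin library (orange squares). CRY1 takes 66.1% and 73.3% of the CRY reads, and the intervals of ARNTL per NR1D1 read and per CRY1 read overlap between the libraries.

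Levels of different genes were compared per kilobase of the longest protein-coding transcript in GENCODE v29, another annotation than the authors' build. CRY1 led in both libraries, with 21.8 CPM per kilobase (20.7 to 23.0) in the control and 23.5 (22.4 to 24.7) in the knockdown. PER3 came next, at 18.7 (17.9 to 19.4) and 12.4 (11.8 to 13.0), followed by BHLHE40 at 12.4 and 10.2. In the control CRY2 (8.72), PER1 (8.19) and PER2 (7.55) followed in that order, each overlapping the next in its counting interval, and then ARNTL (5.22) and NR1D1 (4.34), which also overlapped. In the knockdown CRY2 (6.66), ARNTL (6.39), PER1 (6.29) and PER2 (5.78 CPM per kilobase) all lay within overlapping intervals. CLOCK was at 2.19 and 2.00 and BHLHE41 lowest at 0.254 and 0.160. CLOCK has transcripts of very unequal length, and with the median transcript length it stood at 5.57 and 5.08 CPM per kilobase, above ARNTL in the control.

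Other genes of the pathway were described from lists by role. For comparison, 5.78% of all 13316 compared genes were at least 1.5-fold higher and 3.57% lower. Of 10 partners in the transcriptional loop, 9 were compared, and 0 were at least 1.5-fold higher and 0 lower, with a median log2 change of -0.05. RORA, a nuclear receptor that activates ARNTL through the RORE, was at 2.29 and 3.35 CPM, with a counting interval of the ratio that started at 0.998. CIART, an E-box-driven repressor of the dimer, was at 11.0 and 8.96 CPM, and NFIL3, a repressor at D-boxes, was at 13.6 and 11.3 CPM. TIPIN, a partner of TIMELESS at replication forks, was at 29.4 and 35.8 CPM. Paralogs of the members, chosen after their values were seen, were near level: NPAS2, which can replace CLOCK, was at 14.3 and 16.5 CPM, ARNTL2 at 47.8 and 52.6 CPM and NR1D2 at 18.1 and 17.4 CPM.

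Enzymes that mark PER and CRY proteins for stability or decay showed no member past 1.5-fold. Of 18 kinases, ubiquitin ligases, deubiquitinases and phosphatases, 17 were compared, 0 were higher and 0 lower, and the median log2 change was 0.12. USP2, a deubiquitinase that cycles in many tissues, was at 22.0 and 31.4 CPM, and PRKAA2, a catalytic subunit of AMPK, at 10.0 and 7.22 CPM. The phosphatase subunit PPP1CC was at 409 and 491 CPM and its relative PPP1CA at 193 and 162 CPM. Of 20 chromatin and RNA-binding cofactors, all compared, 0 were higher and 0 lower (median -0.06). SFPQ, an RNA-binding protein of PER complexes, went from 553 to 387 CPM (log2 -0.52). Of the NCOR corepressor subunits, TBL1X was at 109 and 84.8 CPM and HDAC3 at 53.9 and 68.7 CPM, and the acetyltransferase EP300 at 149 and 123 CPM.

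Clock outputs went both ways. Of 18 genes that cycle downstream of the loop in many tissues, 17 were compared, and 2 were higher and 1 lower at 1.5-fold. Among all compared genes 5.78% were higher and 3.57% lower, so counts this small do not set the outputs apart. Their median log2 change was 0.17. TSPAN4, a tetraspanin, was at 14.8 and 24.3 CPM, 1.65 times as high (log2 0.68), and the zinc finger factor KLF15 at 10.0 and 16.4 CPM (log2 0.66). TSC22D3, the glucocorticoid-induced leucine zipper protein GILZ, went from 38.2 to 25.04 CPM (log2 -0.59). The D-box activator HLF was at 15.1 and 22.3 CPM, and its relatives, chosen after their values were seen, differed. DBP was at 22.9 and 31.6 CPM, and TEF, the most abundant of the 3, at 52.2 and 46.3 CPM, a ratio of 0.887 (0.813 to 0.969).

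**Figure D4:**
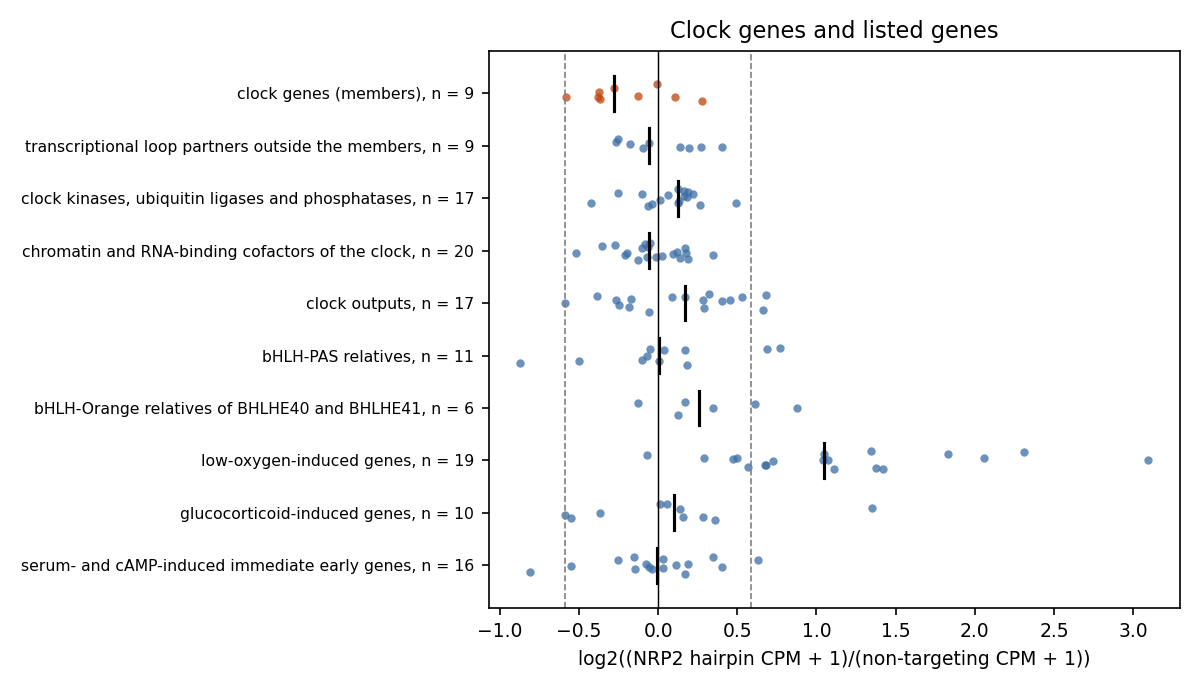
Log2 change of the compared clock genes (orange, top) and of the compared genes of each list (blue), with the median of each as a black bar and dashed lines at 1.5-fold. The 9 clock genes have a median of -0.28 and none lies past a dashed line, whereas the low-oxygen list has a median of 1.05.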

How the data were processed

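RNA sequencing covered 2 libraries, 1 per group. The authors deposited a signal per gene symbol, TMM-normalized CPM per the file headers and names. The submitters' processing notes name build hg19 and bcl2fastq 2.17, RSEM 1.2.15, Bowtie2 2.1.0 and edgeR. Their roles, the annotation and use of strand were not given in the sources used here. All values (100%) were whole multiples of 1 read (0.0487 and 0.0472 CPM) within 0.01 read, so whole reads were recovered. The columns sum to 1024943 and 1084413, above plain CPM, so their unit is handled as a signal. The 28 symbols turned into calendar dates were left out (0.181% and 0.184% of reads).

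The change of a gene is log2((knockdown CPM + 1)/(control CPM + 1)), which understates low genes, for genes averaging at least 1 CPM. Intervals are exact conditional binomial (Clopper-Pearson) or exact Poisson 95% intervals on recovered reads and cover counting error only. No p-value between conditions is given. Lists were matched by symbol. Named were all members, NRP2, and from each list the genes past 1.5-fold, or the 4 largest changes where fewer than 4 passed. Markers, overlapping genes and NRP1 are named for checks. No gene was named for likeness of pattern, since 2 libraries give 1 ratio. The promoters printed, however, were picked by the direction of change of their genes, after the values were seen. Alternatives were pseudocounts of 0.25 and 5 CPM, equal totals and a median log2 ratio of 0. Others were no filter or 5 CPM, a 2-fold call, and ratios with counting intervals. An exact binomial test on the recovered reads with Benjamini-Hochberg adjustment was chosen after seeing the data. The steps were tested on simulated data, with Python 3.11.15, numpy, pandas and scipy. The members and lists were chosen with earlier results of these data known.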

Additional observations from a re-analysis of the deposited data

How the results depend on the processing

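The sign of the log2 change of each of the 10 clock genes held under both other pseudocounts and both other scalings, and the median of the 9 compared genes ranged from -0.36 (equal totals) to -0.25 (pseudocount of 5 CPM). The counting intervals above 1 depended on the scaling. As deposited they started at 1.05 for ARNTL and 1.0025 for CRY1, and the equal-totals factor of 0.945 takes both starts below 1. The count of lower clock genes was 1, PER3, instead of 0 with a pseudocount of 0.25 CPM, with equal totals, with a median log2 ratio of 0 and as a ratio with its counting interval. Equal totals shifted every log2 ratio by -0.08, put the summed PER ratio at 0.669 instead of 0.708, made 594 of all genes higher and 657 lower (47.5% higher among those past 1.5-fold, against 61.8% of 769 and 476 as deposited), and gave 5 lower listed genes instead of 3. All genes higher and lower numbered 329 and 159 with a pseudocount of 5 CPM, and 465 and 310 at a mean of 5 CPM. At 2-fold they numbered 194 and 70, and 12 listed genes were higher instead of 22 and 0 lower. The listed genes are those of the 9 lists without the members, with 118 compared as deposited. Of the 22 higher, 14 were in the low-oxygen list. As deposited, 5.78% of all 13316 compared genes were higher and 3.57% lower. An exact binomial test on recovered reads, with a Benjamini-Hochberg adjusted p under 0.05, compares these 2 libraries and not the conditions; it called 1 clock gene higher (ARNTL) and 5 lower (PER1, PER2, PER3, CRY2 and BHLHE40), 51 and 21 listed genes, and 4028 and 2926 of all genes. No paired analysis was possible because each group holds 1 library. Depth limits BHLHE41, at 20 and 13 reads, most.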

Other observations

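Some relatives of the clock proteins had larger log2 changes than any clock gene, though mostly at low levels. Among 15 other genes of the bHLH-PAS family and its coactivators, to which CLOCK and ARNTL belong, 11 were compared, 2 were at least 1.5-fold higher in the knockdown library and 1 lower. AHR, the aryl hydrocarbon receptor, went from 14.7 to 7.59 CPM (log2 -0.87), and its repressor AHRR was at 0.876 and 2.03 CPM. NPAS1, a neuronal member, was at 2.19 and 4.43 CPM, and ARNT2, a dimer partner in neural tissue, at 27.3 and 19.0 CPM. Of 11 HES, HEY and HELT genes, which share the Orange domain with BHLHE40 and BHLHE41, 6 were compared, 2 were higher and 0 lower. Beside both of these lists, the shares of all compared genes were 5.78% higher and 3.57% lower. HES2 was at 3.46 and 7.17 CPM and HEY1 at 1.66 and 3.07 CPM, while HES1, a Notch effector, was at 19.0 and 24.4 CPM and HES7, the segmentation clock gene, at 8.67 and 9.86 CPM.

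Genes that answer signals known to induce PER1 were also described from lists, and whether these signals had a part in the PER1 value was not tested. Of 10 glucocorticoid-induced genes, PER1 and TSC22D3 among them, 1 was higher, 1 lower and the median log2 change was 0.10. A log2 change below 0 was seen for 3 of these 10, and for 45.9% of all compared genes. Over all compared genes 5.78% were called higher and 3.57% lower. ZBTB16, a zinc finger factor, was at 1.80 and 6.13 CPM, and the phosphatase DUSP1 at 16.2 and 10.7 CPM. Of 20 immediate early genes induced by serum or cAMP, 16 were compared, 1 was higher, 1 lower, 8 were below 0 and the median was -0.01. JUN was at 102 and 57.8 CPM, the orphan receptor NR4A1 at 18.1 and 28.6 CPM and EGR1 at 2.04 and 3.02 CPM.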
